A study of Arabidopsis thaliana with 12 samples.

Results

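The 10 *Arabidopsis thaliana* genes described here belong to the synthesis of jasmonate (JA), a lipid-derived plant hormone, and to the response to it. They were picked out of the 33078 loci of the deposited table by their AGI identifiers, the systematic locus names of Arabidopsis, and not by any measured value. *LOX2* (AT3G45140), *LOX3* (AT1G17420), *AOS* (AT5G42650), *AOC2* (AT3G25770) and *OPR3* (AT2G06050) code for enzymes of JA synthesis. *JAZ1* (AT1G19180, listed as TIFY10A) and *JAZ10* (AT5G13220) code for repressors of the response, and *MYC2* (AT1G32640, listed as ATMYC2) for the transcription factor that these repressors hold back. *VSP1* (AT5G24780) and *VSP2* (AT5G24770) code for vegetative storage proteins, whose transcripts are widely used readouts of JA in leaves. All 10 were found, and all 10 had a mean of 1 FPKM or more over the 4 conditions, as did 19775 of the 33078 loci.

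JA synthesis starts in the plastid. There, 13-lipoxygenases (LOX) add oxygen to linolenic acid released from plastid membranes, allene oxide synthase (AOS) turns the product into an unstable epoxide, and allene oxide cyclases (AOC) close it into 12-oxo-phytodienoic acid (OPDA). OPDA passes to the peroxisome, where OPR3 reduces it and beta-oxidation shortens it to JA. JAR1 joins JA to isoleucine, the conjugate is sensed by the receptor COI1 together with JAZ proteins, and the breakdown of the JAZ proteins frees MYC2 and its relatives. In Arabidopsis seedlings and leaves the pathway is known for its part in wounding, insect attack and growth restraint.

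The study asked how the loss of SIG2, a sigma factor that is encoded in the nucleus and directs the plastid-encoded RNA polymerase to its promoters, alters gene expression in red light. Wild-type (WT) seedlings of the Col-0 ecotype and *sig2-2* seedlings, from the T-DNA insertion line SALK_045706, were sampled after 1 day or 7 days in constant red (Rc) light of 50 μmol m−2 s−1. Before that, all seeds had 4 days of cold in the dark on medium with MS salts and 1% sucrose, and all were then kept at 22 °C. Each of the 4 conditions had 3 replicates, so 12 samples in all, and RNA came from the whole seedling. The mutant is thus 1 insertion line, and organs were not separated.

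The authors combined the 3 replicates of a condition into 1 FPKM value per locus (a fragment count divided by transcript length and by library size, so that levels of different genes can be compared). The values below are these combined values, so no SD and no n of their own stand beside them, no test across replicates was made here, and the depth behind each value is unknown. A change is log2 of the ratio of 2 values after adding 1 FPKM to each, which understates changes at low levels. A gene is counted as raised or lowered where this change reached 2-fold, that is 1 on the log2 scale. The targeted gene followed its labels, with *SIG2* at 66.5 FPKM in WT and 1.31 in the mutant at 1 day, then 87.7 and 1.49 FPKM at 7 days. At 7 days the markers of seedling tissue were present. The 3 mesophyll markers summed to 43068 FPKM in WT and 54847 in the mutant at 7 days, all 5 root markers were above 0 in both genotypes at that age, and the 3 flower markers summed to between 0.244 and 0.851 FPKM in the 4 conditions. At 1 day the mesophyll marker *CA1* was at 0.045 FPKM in WT and listed at 0 in *sig2-2*, and the root marker *CASP1* was listed at 0 in WT. Between 18186 and 19456 loci were at 1 FPKM or more in a condition, and the highest locus held between 5.45% and 32.6% of the summed FPKM.

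Promoter sequences are shown first for 5 of the genes, because the results turn on *LOX2*, *AOC2* and *AOS*, which were lower in *sig2-2* at 7 days, and because *AOS*, *VSP1* and *MYC2* hold the only motif matches among the 10. The windows are the 250 bases before the start of each gene in RefSeq's annotation of TAIR10.1, read on the strand of the gene from 5′ to 3′. *LOX2* lies on the forward strand (window chr3:16524995-16525244) and so does *AOC2* (chr3:9406419-9406668), while *AOS* (chr5:17099596-17099845), *VSP1* (chr5:8509202-8509451) and *MYC2* (chr1:11801408-11801657) lie on the reverse strand. Capitals mark the G-box CACGTG, a hexamer that MYC2 is known to bind, or its variant AACGTG, which reads CACGTT on the other strand.
LOX2: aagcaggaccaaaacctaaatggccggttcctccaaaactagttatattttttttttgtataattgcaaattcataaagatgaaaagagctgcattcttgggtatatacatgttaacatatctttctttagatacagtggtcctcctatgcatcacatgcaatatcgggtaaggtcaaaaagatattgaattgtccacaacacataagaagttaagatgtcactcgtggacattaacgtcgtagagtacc
AOC2: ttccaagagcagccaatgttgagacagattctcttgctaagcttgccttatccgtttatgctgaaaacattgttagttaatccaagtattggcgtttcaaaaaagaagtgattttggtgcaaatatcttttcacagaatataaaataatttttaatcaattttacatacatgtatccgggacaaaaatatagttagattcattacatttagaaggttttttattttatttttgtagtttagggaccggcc
AOS: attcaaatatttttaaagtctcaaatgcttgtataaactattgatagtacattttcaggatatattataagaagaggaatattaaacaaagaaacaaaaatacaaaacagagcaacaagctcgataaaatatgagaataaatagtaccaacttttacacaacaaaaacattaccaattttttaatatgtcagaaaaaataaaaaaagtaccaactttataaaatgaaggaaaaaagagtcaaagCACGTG
VSP1: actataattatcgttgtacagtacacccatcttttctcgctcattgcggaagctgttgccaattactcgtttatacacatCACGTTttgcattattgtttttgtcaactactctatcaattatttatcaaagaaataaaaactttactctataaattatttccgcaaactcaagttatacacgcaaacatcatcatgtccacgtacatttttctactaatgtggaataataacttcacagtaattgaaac
MYC2: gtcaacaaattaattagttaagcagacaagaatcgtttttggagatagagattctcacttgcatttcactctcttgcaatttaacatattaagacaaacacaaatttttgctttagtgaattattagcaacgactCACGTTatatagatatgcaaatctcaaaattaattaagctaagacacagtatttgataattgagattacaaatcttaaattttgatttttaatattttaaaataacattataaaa
Of these windows, *AOS* holds a G-box in the last 6 bases before the start. *VSP1* holds the variant from 170 to 165 bases before the start, and *MYC2* holds it from 115 to 110 bases before. In the same windows of all 10 genes, searched on both strands, 1 holds a G-box, 2 hold the variant and 3 hold either form. Among 27443 promoter windows of that length, 6.49% hold a G-box, 7.54% the variant and 13.3% either form. None of the 10 holds the GCC box GCCGCC, the element of ethylene response factors, which 1.87% of promoters hold. A match describes these letters only. A window without one says no more than that the letters are not in it.

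The largest differences between the genotypes were those of *LOX2*, *AOC2* and *AOS* at 7 days. In 7-day-old seedlings, *LOX2*, *AOC2*, *AOS*, *VSP2* and *VSP1* were lower in *sig2-2*, and *JAZ1*, *JAZ10*, *MYC2*, *LOX3* and *OPR3* differed by less than 2-fold.

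Counted together, 0 of the 10 genes were raised and 0 lowered at 1 day, where 2.49% of all loci tested were raised and 0.971% lowered. The changes ran from −0.06 to 0.49, with a median of 0.13, and the median over all loci was −0.00. At that age 5 of the 10 were under 1 FPKM in both genotypes, and with a pseudocount (the value added before the logarithm) of 0.1 in place of 1 FPKM, *AOC2* (2.33) and *VSP2* (1.60) were raised, against 5.08% of all loci. At 7 days 5 of the 10 were lowered, against 3.51% of all loci, and 0 were raised, against 4.16%. Of the 5, *VSP1* and *VSP2* reached a mean of 1 FPKM only through 7-day-old WT, so the filter favoured their call. With no filter on low values the 2 counts were the same, against 2.35% of all loci lowered and 2.71% raised. With a pseudocount of 5, 3 were lowered, *LOX2*, *AOC2* and *AOS*, against 1.71% of all loci. The median of the 10 was −0.90 and that of all loci was 0, and 8 of the 10 were lower in *sig2-2* by any amount, *JAZ1* and *MYC2* being the exceptions. Under 3 other scalings of the conditions, *JAZ10* at 1 day was the only one of the 10 genes whose direction between genotypes turned, and equal summed FPKM, 1 of these scalings, moved the median of all loci at 1 day to 0.13. The plot of the 10 genes by condition shows the levels behind these counts.

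**Figure D1:**
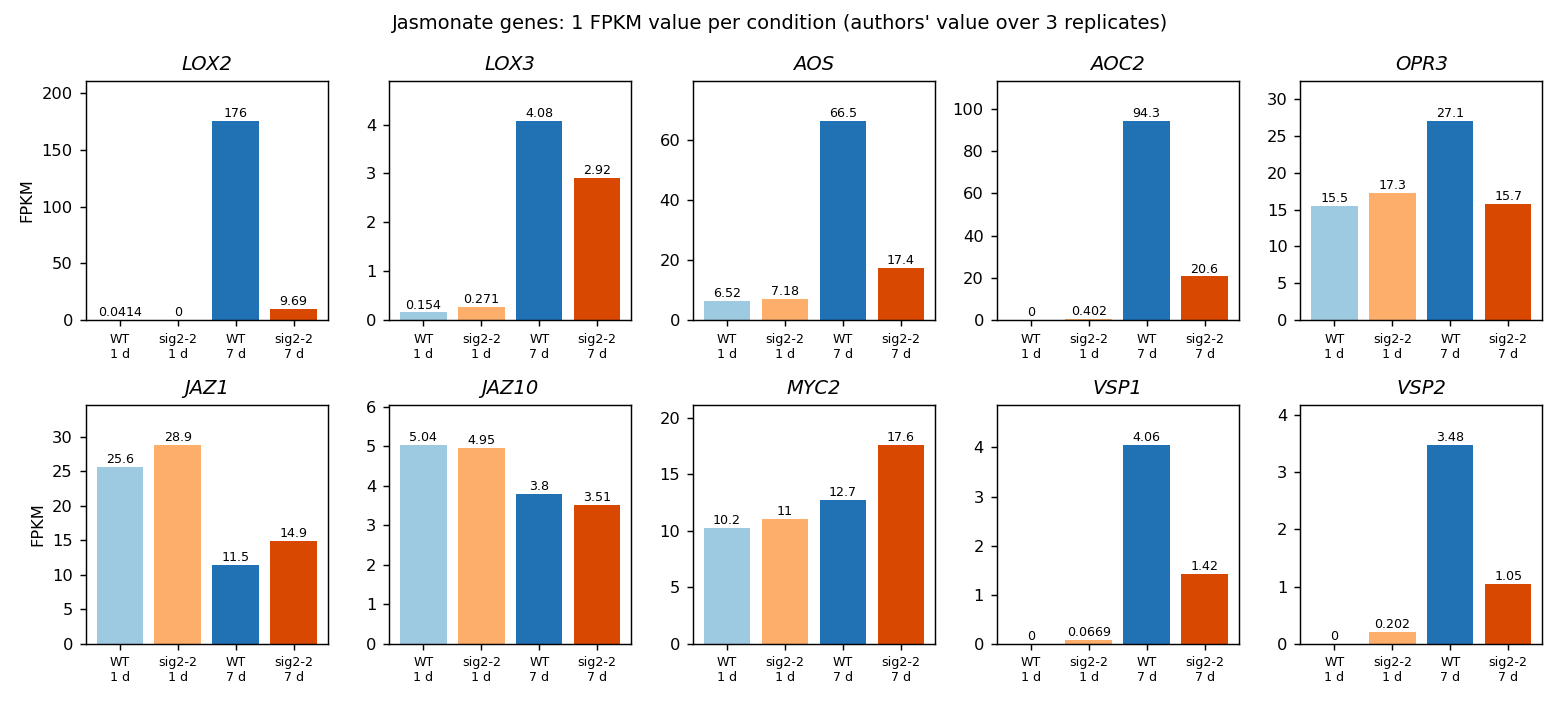
FPKM of the 10 jasmonate genes in WT and *sig2-2* after 1 day and 7 days in Rc light, with 1 bar per condition, each the authors' value over 3 replicates, on axes that start at 0 and differ between genes. *LOX2*, *AOC2* and *AOS* stand at 175.6, 94.3 and 66.5 FPKM in 7-day-old WT and at 9.69, 20.6 and 17.4 FPKM in *sig2-2*.

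*LOX2* codes for the 13-lipoxygenase that makes much of the JA of wounded leaves. In the deposited table, whose genome build is not given in the sources used here, it lies on chromosome 3 from 16525410 to 16529352, with 7 exons in its longest RefSeq transcript. Its transcript was nearly absent at 1 day, at 0.0414 FPKM in WT and listed at 0 in the mutant. In 7-day-old seedlings its level was 175.6 FPKM for WT and 9.69 FPKM in the mutant, an 18.1-fold lower level and a log2 change of −4.05. This change stood at rank 41 among the falls of 19775 loci and was the largest fall of the 10 genes. In WT at 7 days it was the highest of the 10, above 95.7% of all loci tested, and in *sig2-2* it was the sixth, above 42.0% of them. Because whole seedlings were used, fewer cells that express a gene and less RNA per cell cannot be told apart here.

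*LOX3*, another 13-lipoxygenase with parts in flower fertility and wounding, lies on chromosome 1 from 5977411 to 5981480. Its level was 0.154 FPKM in WT and 0.271 in the mutant at 1 day, then 4.08 and 2.92 FPKM at 7 days, a log2 change of −0.37. Its level in WT at 7 days was thus far under that of *LOX2*, on the same length-scaled unit. *LOX4*, its near copy, was at 1.15 FPKM in WT and 1.22 in the mutant at 7 days, and *LOX6*, which is known for the fast JA response and for roots, at 13.7 and 14.9 FPKM. Summed over these 4 genes, the 13-lipoxygenase level was 194.5 FPKM in WT and 28.7 FPKM in the mutant at 7 days. *LOX2* made up 90.3% of that sum in WT and 33.8% in *sig2-2*, where *LOX6* made up 51.8%. At 1 day *LOX6* held 98.3% of the sum in both genotypes.

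*AOS* is a gene of a single exon on chromosome 5, from 17097595 to 17099395, and its product is the only allene oxide synthase of Arabidopsis. The transcript was at 6.52 FPKM in WT and 7.18 in the mutant at 1 day. In 7-day-old seedlings its level was 66.5 FPKM for WT and 17.4 FPKM in the mutant, 3.81-fold lower, with a log2 change of −1.87 and rank 188 among the falls.

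*AOC2*, on chromosome 3 from 9406873 to 9407955, is one of the AOC genes that stand next to each other there. It was listed at 0 in WT and at 0.402 FPKM in *sig2-2* at 1 day, then 94.3 and 20.6 FPKM at 7 days. The latter is a 4.57-fold lower level in *sig2-2* and a log2 change of −2.14, at rank 147 among the falls. *AOC1*, whose coding sequence is 90.4% identical to that of *AOC2*, stood at 24.3 FPKM in WT and 10.5 in the mutant at 7 days (log2 change −1.14). The other cyclases changed less, with *AOC3* at 6.90 and 5.57 FPKM and *AOC4* at 28.2 and 19.1 FPKM. Over the 4 cyclase genes the sum was 153.7 FPKM in WT and 55.8 FPKM in the mutant at 7 days, and the share of *AOC2* was 61.4% and 37.0%. In 1-day-old WT, *AOC4* held 65.5% of the sum and *AOC2* none of it. Of the 55-base words in the exons of *AOC2*, 55 bases being the length of the reads, 100% occur once in the genome, as do 98.2% of those of *AOC1*.

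*OPR3*, the peroxisomal reductase that acts on OPDA, was between 15.5 and 17.3 FPKM in 3 of the 4 conditions. It lies on chromosome 2 from 2359114 to 2362302. Its level was 15.5 FPKM in WT and 17.3 in the mutant at 1 day, then 27.1 and 15.7 FPKM at 7 days, so that 7-day-old WT stood above the rest. The 7-day log2 change was −0.75, which did not reach 2-fold. *OPR1*, a related reductase that has little activity on the natural OPDA isomer, stood at 225.6 FPKM in WT and 109.7 in the mutant at 7 days (log2 change −1.03), with 96.3% of its 55-base words found once.

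The repressor genes showed another order. *JAZ1*, on chromosome 1 from 6622094 to 6623620, was the highest of the 10 genes at 1 day, at 25.6 FPKM in WT and 28.9 in the mutant. It was at 11.5 and 14.9 FPKM at 7 days, slightly higher in *sig2-2* at both ages (log2 changes 0.17 and 0.35). *JAZ10*, on chromosome 5 from 4218888 to 4220883, is a repressor with splice forms that resist breakdown, and RefSeq lists 7 transcripts for it. Its values were 5.04 FPKM in WT and 4.95 in the mutant at 1 day, and 3.80 and 3.51 FPKM at 7 days, the narrowest range of the 10 genes on the log2 scale. Summed over the 13 *JAZ* genes, the level was 173.6 FPKM in WT and 179.2 FPKM in the mutant at 7 days. *JAZ12* and *JAZ9* held 29.0% and 22.3% of that WT sum, and *JAZ1* held 6.61%, against 28.4% at 1 day. The *JAZ12* locus overlaps another coding gene (AT5G20910), so its level may hold reads of that gene.

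*MYC2*, on chromosome 1 from 11798810 to 11800988, had levels of 10.2 FPKM in WT and 11.0 in the mutant at 1 day, then 12.7 and 17.6 FPKM at 7 days. The log2 changes were 0.10 and 0.44, both higher in *sig2-2* and both under 2-fold. The locus overlaps another coding gene of RefSeq (AT1G32630), and how the authors divided reads between them is not given in the sources used here. *MYC3* and *MYC4*, which share much of the work of *MYC2*, were at 30.8 and 11.8 FPKM in WT and at 29.8 and 9.17 FPKM in *sig2-2* at 7 days.

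*VSP1* and *VSP2* stood next to each other in level and in pattern. *VSP1*, on chromosome 5 from 8507590 to 8508957, was listed at 0 in WT and at 0.0669 FPKM in *sig2-2* at 1 day, then 4.06 and 1.42 FPKM at 7 days (log2 change −1.06, rank 622 among the falls). *VSP2*, from 8500476 to 8502224 on that chromosome, was listed at 0 and at 0.202 FPKM at 1 day, then 3.48 and 1.05 FPKM at 7 days (log2 change −1.13, rank 555). Both were low in every condition. Both changes fell short of 2-fold when 5 FPKM in place of 1 was added to each value, at −0.50 for *VSP1* and −0.49 for *VSP2*. The coding sequences are 90.4% identical, yet 100% of the 55-base words of each gene occur once in the genome.

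The 7-day changes are placed on the distribution of all loci in the histogram.

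**Figure D2:**
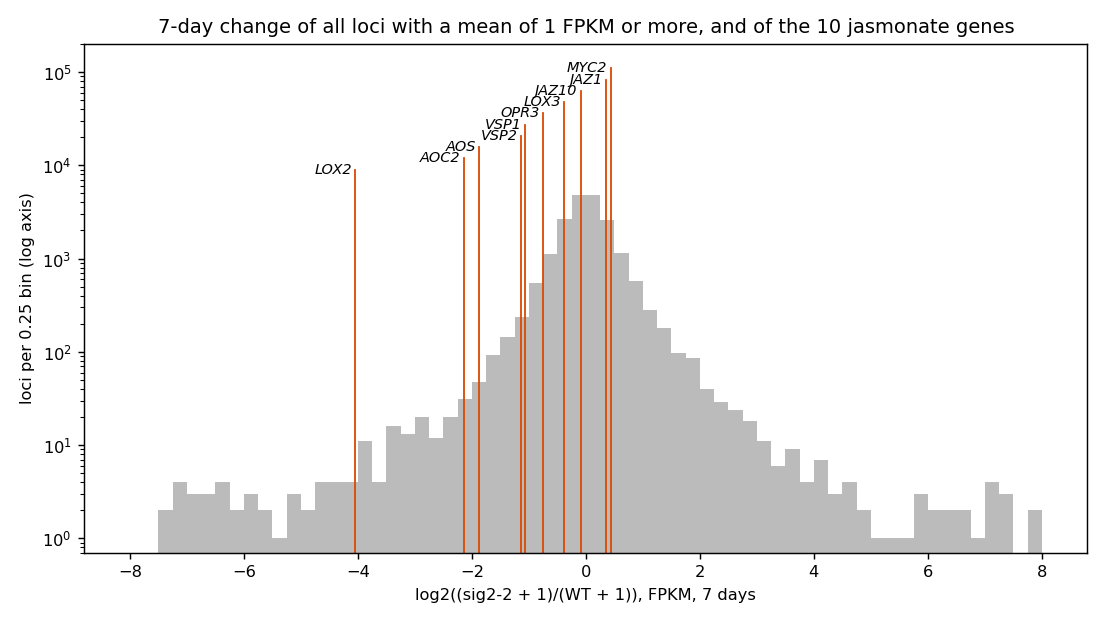
Histogram of the log2 change of *sig2-2* against WT at 7 days over 19775 loci with a mean of 1 FPKM or more (x axis, log2 of FPKM + 1; y axis, loci per bin on a log scale). Each vertical line marks 1 of the 10 jasmonate genes and its height only separates the names. *LOX2* lies at −4.05, *AOC2* at −2.14 and *AOS* at −1.87, to the left of the bulk of loci, and *JAZ1* and *MYC2* lie just right of 0.

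The difference between the ages, taken as the 7-day change minus the 1-day change of each gene, had a median of −1.02 over the 10 genes, which was −0.53 with a pseudocount of 5 and −1.54 with one of 0.1. It was −3.99 for *LOX2*, −2.63 for *AOC2*, −1.99 for *AOS*, −1.40 for *VSP2* and −1.15 for *VSP1*. Of these, *LOX2*, *AOC2*, *VSP2* and *VSP1* were under 1 FPKM in both genotypes at 1 day. With 1 FPKM added, their 1-day change could not reach 2-fold, so their differences largely repeat the 7-day change. The other 5 lay between −0.89 for *OPR3* and 0.34 for *MYC2*. This difference was not tested, since each condition has 1 value.

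Between 1 day and 7 days in WT, *LOX2*, *AOC2*, *AOS*, *VSP1*, *VSP2* and *LOX3* were raised, so 6 of 10 genes against 18.6% of all loci tested, and *JAZ1* was lowered, 1 of 10 against 13.7%. Of the 6, all but *AOS* reached a mean of 1 FPKM only through the 7-day values. The filter thus favoured a call of raised with age for them, in *sig2-2* as well. The log2 changes in WT were 7.41 for *LOX2*, 6.57 for *AOC2*, 3.17 for *AOS*, 2.34 for *VSP1*, 2.16 for *VSP2* and 2.14 for *LOX3*. With a pseudocount of 5, the last 3 of these were at 0.86, 0.76 and 0.82, so that 3 of 10 genes were raised, against 11.3% of all loci. The *AOS* level was 10.2-fold higher at 7 days than at 1 day. *AOC2*, *VSP1* and *VSP2* were listed at 0 at 1 day, so that no fold is given for them. *JAZ1* had a log2 change of −1.09, which was −0.92 with each condition centred on the median locus and −0.61 with equal summed FPKM.

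In *sig2-2* the same comparison of ages counted 5 of 10 genes as raised, against 19.2% of all loci, and 0 as lowered, against 15.5%. The log2 changes were 3.95 for *AOC2*, 3.42 for *LOX2*, 1.62 for *LOX3*, 1.18 for *VSP1* and 1.17 for *AOS*. *AOS* was 2.43-fold higher at 7 days. *VSP2* had a log2 change of 0.77 and was not counted as raised. With a pseudocount of 5, 2 of 10 were raised, *AOC2* and *LOX2*, against 12.05% of all loci. The median over the 10 genes was 2.15 in WT and 0.97 in *sig2-2*, with medians over all loci of −0.10 and −0.07. *OPR3* changed by 0.76 in WT and by −0.12 in *sig2-2*, and with equal summed FPKM these became 1.25, then counted as raised, and 0.13. Centring turned the *sig2-2* value to 0.0097. Equal summed FPKM moved the median of all loci to 0.34 in WT and 0.16 in *sig2-2*. The share of raised loci among all that were called then moved from 57.5% to 81.7% in WT, where centring gave 68.1%, and from 55.3% to 68.3% in *sig2-2*. These 2 comparisons share their conditions with those between the genotypes and are no separate support for them. The plot of both age changes sets the genotypes side by side.

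**Figure D3:**
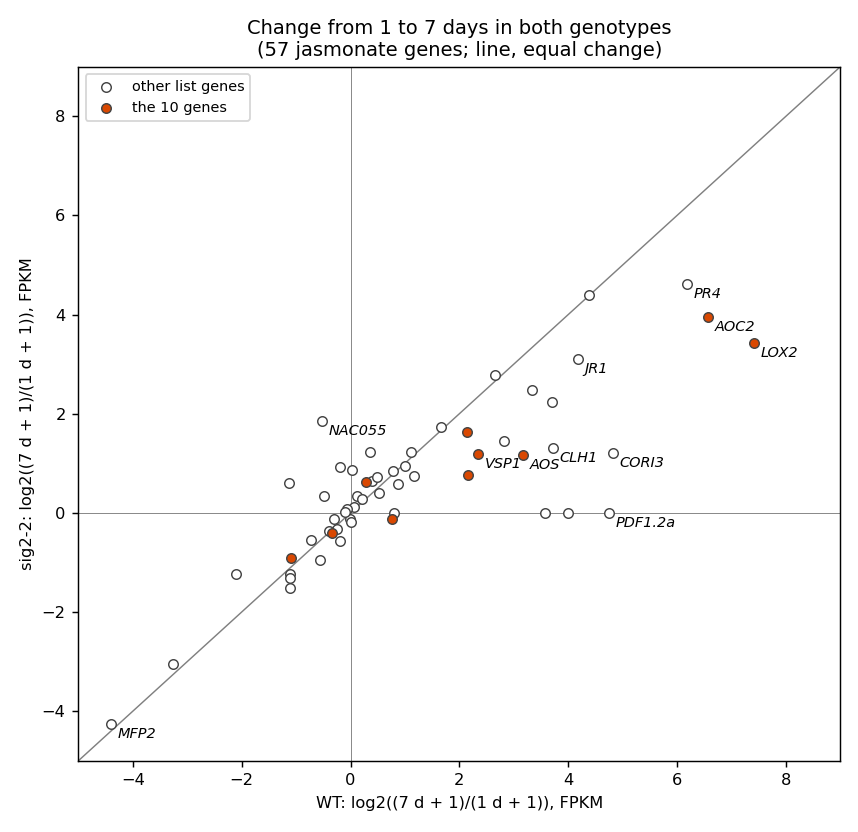
Log2 change from 1 day to 7 days in WT (x axis) and in *sig2-2* (y axis), on FPKM + 1, for the 57 of 75 jasmonate genes with a mean of 1 FPKM or more, and the diagonal marks equal change. *LOX2* lies at 7.41 and 3.42, *AOC2* at 6.57 and 3.95 and *AOS* at 3.17 and 1.17, all under the diagonal.

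Beside these 10, the rest of the pathway was followed with lists of 75 genes by role, the 10 included. At 7 days 13 of the 75 were lowered in *sig2-2* and 3 were raised. The shares of all loci cover only those with a mean of 1 FPKM or more, as 57 of the 75 had. Of these 57, 12 were lowered at 7 days, against 3.51% of all loci tested, and 3 were raised, against 4.16%. At 1 day 0 of the 57 were lowered, against 0.971%, and 2 were raised, against 2.49%. The raised genes were thus few, and near those shares, at both ages. The 2 were *JR1*, a JA-responsive lectin gene, at 5.28 FPKM in WT and 12.7 in the mutant, and *PR4*, a hevein-like defence gene, at 0.195 and 1.87 FPKM. Without the 10 genes, 47 of the other 65 had such a mean. Of these 47, 7 were lowered and 3 were raised at 7 days, with a median change of 0.01, beside the same shares of all loci. Among the lowered, *CORI3*, *ORA59* and the *PDF1.2* genes, described below, reached such a mean only through 7-day-old WT. Among the raised, *NAC055* reached it only through 7-day-old *sig2-2*. The filter thus favoured these calls, and in the counts over the 57 it also favoured those of *VSP1* and *VSP2*. The changes by role are shown in the strip plot.

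**Figure D4:**
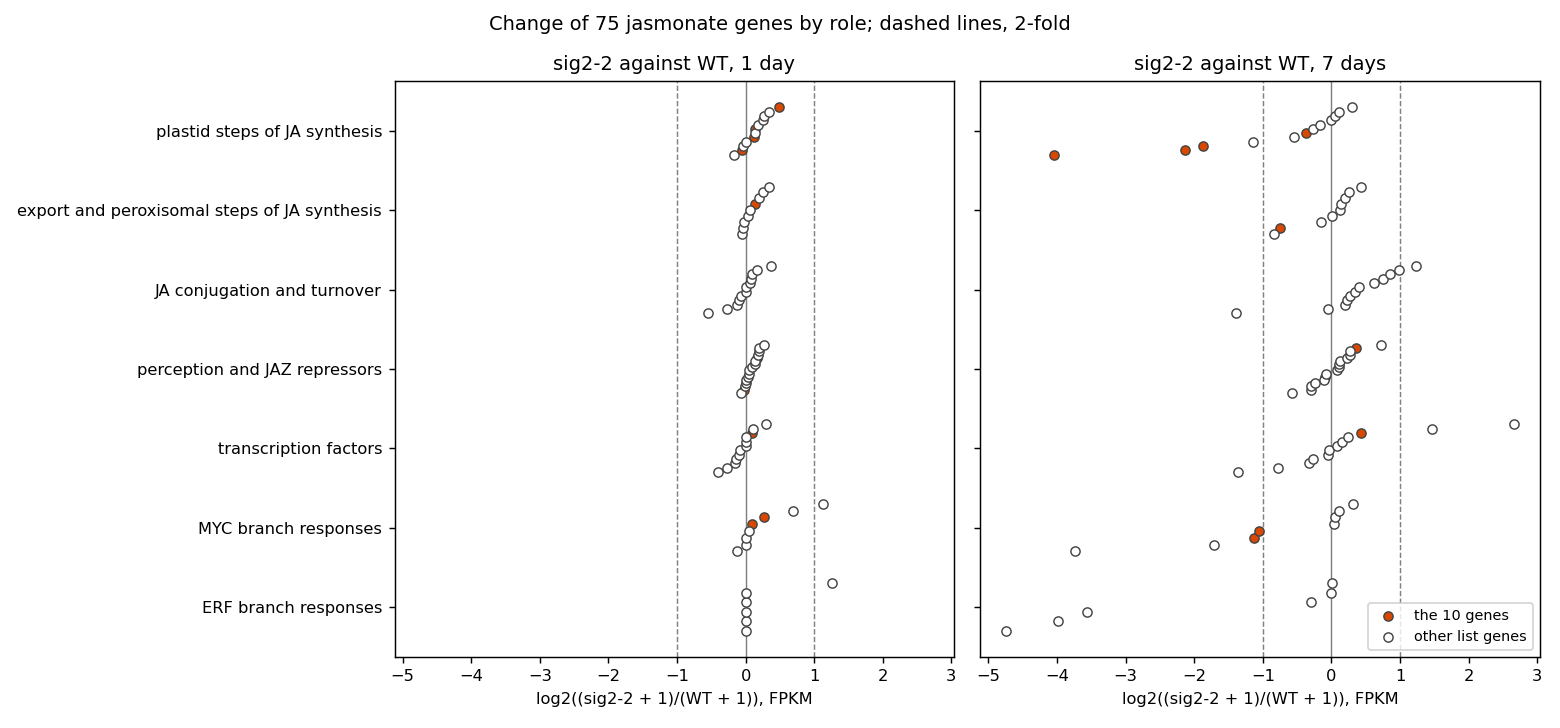
Log2 change of *sig2-2* against WT at 1 day and 7 days (x axes, on FPKM + 1) for 75 jasmonate genes in 7 role lists, with each point 1 gene, the 10 genes filled and dashed lines at 2-fold. At 1 day 2 points lie past the right line and none past the left, and at 7 days 13 lie past the left line and 3 past the right.

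Steps in the plastid held 4 of the genes lowered at 7 days, *LOX2*, *AOC2*, *AOS* and *AOC1*, out of 12, and 0 raised. Of the 12, 10 had a mean of 1 FPKM or more. The shares of all loci tested, for this list and the next ones, were 3.51% lowered and 4.16% raised at 7 days. At 1 day they were 0.971% and 2.49%. In the list of 9 genes for export and peroxisomal steps, which holds *OPR3*, 0 were lowered and 0 were raised, with changes from −0.84 to 0.44. Of 12 genes for JA conjugation and turnover, *CYP94B1*, which oxidises the JA conjugate, was raised from 2.28 FPKM in WT to 6.72 in *sig2-2* (log2 change 1.23). *JMT*, which makes methyl jasmonate, was lowered from 1.94 to 0.122 FPKM (log2 change −1.39), and it is named after its value was seen because its mean is under 1 FPKM. The median of that list was 0.37. *JAR1* was at 24.4 FPKM in WT and 23.6 in the mutant at 7 days.

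In the perception list, none of 16 genes, *COI1* and the *JAZ* genes among them, was raised or lowered at either age between the genotypes. The receptor gene *COI1* was at 14.8 and 14.1 FPKM in WT and *sig2-2* at 1 day, then 14.0 and 14.9 FPKM at 7 days, and its locus overlaps another coding gene (AT2G39930). Among 12 transcription factor genes, *NAC055* and *NAC072*, which are known targets of MYC2 in Arabidopsis, were raised at 7 days. *NAC055* stood at 0.326 FPKM in WT and 7.43 in the mutant (log2 change 2.67), and *NAC072* at 4.42 and 14.0 FPKM (log2 change 1.47). *ORA59*, an activator of defensin genes, was lowered from 6.02 to 1.74 FPKM (log2 change −1.36).

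Response genes of the MYC branch included 4 of 8 that were lowered at 7 days and 0 raised, against 3.51% and 4.16% of all loci tested. *VSP1* and *VSP2* were among the 4, and 5 of the 8 had a mean of 1 FPKM or more. Of the 4, *VSP1*, *VSP2* and *CORI3* reached that mean only through 7-day-old WT, where they were highest, so the filter favoured their call. *CORI3*, a gene named for its induction by the JA mimic coronatine, stood at 29.8 FPKM in WT and 1.305 in the mutant, a log2 change of −3.74 and rank 54 among the falls. *CLH1*, a chlorophyllase gene, was at 54.4 and 15.9 FPKM (log2 change −1.71). *JR1*, in contrast, was at 112.3 and 116.3 FPKM. In the ERF branch of 6 genes, 5 of them with such a mean, 3 were lowered and 0 raised, beside the same shares of all loci. These were the plant defensin genes *PDF1.2a*, *PDF1.2b* and *PDF1.2c*, at 25.8, 14.9 and 10.9 FPKM in WT at 7 days and listed at 0 in *sig2-2* and in both genotypes at 1 day. They reached a mean of 1 FPKM only through 7-day-old WT, so lowered at 7 days was the only call between genotypes open to them. Their coding sequences are 93.4% to 94.2% identical to each other, and the GCC box absent from the 10 promoters is present in those of *PDF1.2a*, *PDF1.2b* and *ORA59* but not in that of *PDF1.2c*.

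Other gene groups were measured in the same seedlings. Early genes of touch and wounding, a list of 10, had 4 raised and 0 lowered in *sig2-2* at 7 days, against 4.16% and 3.51% of all loci, and their summed level was 135.8 FPKM in WT and 274.3 in the mutant. *WRKY40*, whose locus overlaps another coding gene (AT1G80850), was at 1.66 and 10.5 FPKM. *TCH4* was at 11.9 and 51.6, *ZAT10* at 7.06 and 25.6, and *ZAT12* at 6.55 and 20.4 FPKM. At 1 day the summed level of that list was 139.2 FPKM in WT and 111.7 in the mutant, with 0 of 10 raised or lowered. At 7 days, where *LOX2*, *AOC2* and *AOS* were lower in *sig2-2*, the mesophyll marker *CA1* was at 3510 FPKM in WT and 2255 in the mutant, *RBCS1A* at 22628 and 17384, and *LHCB1.3* at 16930 and 35208 FPKM. In the epidermis and guard cell list, 1 of 4 markers was lowered, and the 4 summed to 63.0 FPKM in WT and 66.3 in the mutant. Of the root markers 1 of 5 was lowered, with sums of 48.0 and 53.2 FPKM, and of the phloem markers 0 of 2, with sums of 97.1 and 107.6 FPKM. At 1 day, where 2.49% of all loci tested were raised, all 4 markers of maturing seed were raised in *sig2-2*. They summed to 15.7 FPKM in WT and 126.5 in the mutant at 1 day, and to 0.372 and 2.89 FPKM at 7 days. Also at 1 day, 2 of 5 root markers were raised, with sums of 37.0 and 64.0 FPKM. These were *EXPA7*, at 5.47 FPKM in WT and 30.6 in the mutant, and *CASP1*, listed at 0 and at 1.35 FPKM. The *CASP1* locus overlaps another coding gene (AT2G36090). Of the mesophyll markers 1 of 3 (*LHCB1.3*) was raised at that age, with sums of 2069 and 3356 FPKM. The part of any of these in the levels of the 10 genes was not tested.

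Likeness of pattern was measured as the root mean square distance between log2(FPKM + 1) values over the 4 conditions, each gene centred on its own mean, among loci with a mean of 5 FPKM or more. The locus nearest to *LOX2* was *MAM1* (distance 0.28), a gene of methionine chain elongation in glucosinolate synthesis, at 0.0714 FPKM in WT and listed at 0 in the mutant at 1 day, then 117.5 and 6.58 FPKM at 7 days. AT5G42530 (0.33) and *CYP83A1* (0.38), a cytochrome P450 gene of glucosinolate synthesis, came next, and 0 loci lay within 0.25. Nearest to *VSP2* were *GSR2* (0.11), a glutamine synthetase gene, the locus listed as AT2G25052,FH18 (0.11) and AT1G11700 (0.12), with 72 loci within 0.25. *VSP2* itself had a mean of 1.18 FPKM, under that floor, and at levels like those of *VSP1* and *VSP2* the added 1 FPKM flattens a pattern. *GSR2* was at 186.1 FPKM in WT and 203.8 in the mutant at 1 day, then 689.2 and 325.8 FPKM. Its likeness to *VSP2* thus holds only on this scale. For *JAZ1* the nearest loci were AT4G27340, AT4G26370 and AT3G18230, and for *MYC2* they were AT4G27610, *SDIR1* and *CDPK1*. In those neighbourhoods 2005 and 2504 loci lay within 0.25, so the patterns of *JAZ1* and *MYC2* were shared by many loci. Among the 10 genes themselves, the closest pair was *VSP1* and *VSP2*, at a distance of 0.16, and *LOX2* lay at 0.70 from *AOC2* and at 3.56 from *JAZ1*.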

How the data were processed

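RNA was measured by RNA-Seq in 12 whole-seedling samples, 3 for each of 4 conditions, and groups followed the titles of the samples. Per the paper's methods, mRNA libraries (TruSeq) gave reads of 55 nucleotides, and the authors ran Cufflinks and Cuffdiff, which combined replicates into the deposited FPKM values, 1 per condition. Versions, aligner and genome build are not given in the sources used here. The deposited table also holds the authors' log2 ratios, p-values, q-values and a column of significance calls, which come from Cuffdiff on the replicates and were left out as the authors' own findings. Values in the tables of single conditions differed from it by 0 at most. The table's 3 rows of notes were left out.

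FPKM values are not counts, and 1 value per condition leaves no spread between replicates to model here, so the planned test for replicate columns was not run. Changes were log2 of FPKM + 1, with 2-fold as the threshold, over 19775 loci with a mean of 1 FPKM or more. The genes named were the 10 genes, up to 4 genes of each role list with such a mean and a 2-fold change between genotypes at either age, a few receptors, relatives and near copies whatever their values, and the 3 loci nearest in pattern to *LOX2*, *JAZ1*, *VSP2* and *MYC2*. *JMT*, *JAZ9*, *JAZ12* and the single markers of mesophyll and root that are named were chosen only once their values had been seen. Genes and lists were chosen with earlier results of these data known. Of 32386 identifiers in RefSeq's TAIR10.1, 32060 overlapped their position there. Starts in the table are written here counting from 1. Promoters, coding identity and 55-base words came from TAIR10.1. Python 3.11.15, pandas 2.3.3, numpy 2.4.6, Biopython 1.88 and matplotlib 3.10.9 were used. Only the 2-fold call between genotypes at 7 days was tested on simulated data, with changed loci at 5 FPKM or more in WT. The other steps, and calls at lower levels, were not tested in this way.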

Additional observations from a re-analysis of the deposited data

How the results depend on the processing

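The alternatives were pseudocounts of 0.1 and 5, no filter or a mean of 5 FPKM, 3 scalings, a 1.5-fold threshold and the tables of single conditions. No paired analysis was possible because each condition has 1 combined value, and so no replicate was left out either.

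Of 344 changes of single genes recomputed in this way, 324 stayed on their side of the threshold, 11 fell short of it, 9 newly reached it and 0 were called in the opposite direction. The filters and the tables of single conditions leave the change of a single gene as it is. Their part of the 324 was thus fixed in advance, and only the pseudocounts, the scalings and the 1.5-fold threshold could move a call. With a pseudocount of 5, the median difference between ages went from −1.02 to −0.53, and the genes called numbered 3 of 7 in WT between ages, 2 of 5 in *sig2-2* between ages, and 3 of 5 between genotypes at 7 days. A filter at a mean of 5 FPKM kept 6 of the 10 genes, of which 4, 3 and 3 were called in those comparisons. The 4 in WT between ages were 3 raised and 1 lowered, against 16.2% and 14.7% of all loci under that filter. The 3 in *sig2-2* between ages were all raised, where 17.5% of all loci were raised and 16.7% lowered. The 3 between genotypes at 7 days were all lowered, where 3.01% of all loci were lowered and 3.89% raised. With a pseudocount of 0.1, 2 genes were raised at 1 day in place of 0, *AOC2* (2.33) and *VSP2* (1.60), both listed at 0 in WT. A 1.5-fold threshold called 8 genes in *sig2-2* between ages, 7 raised and 1 lowered, where 27.5% of all loci were raised and 27.7% lowered. *LOX2*, *AOC2* and *AOS* were counted as lowered at 7 days under every alternative run. Values under 1 FPKM rest on an unknown number of reads.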
